A study of Homo sapiens with 18 samples.

Results

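The response to thapsigargin was followed in HEK293doxERN2 cells that had received no doxycycline. These derive from HEK293, an established line from human embryonic kidney, and hold a transgene for FLAG-tagged ERN2 that the drug doxycycline switches on, here left uninduced. The comparison holds 6 of the 18 RNA-Seq libraries of the series, chosen by their titles: 3 labelled as control without ERN2, from cells given the solvent DMSO, and 3 labelled as stress without ERN2, from cells given 200 nM thapsigargin for 3 hours. All genes of the count table entered. The other 12 libraries had 10 or 100 ng/mL doxycycline over 24 hours, again with DMSO or thapsigargin. They serve below for side by side values, tests of the difference between doses, a simulation of such a test and an alternative fit with all 6 groups. All groups, controls included, carry the transgene, and a single engineered line was used, so the response of parental HEK293 cells is not measured. Without doxycycline the libraries held 121 to 262 reads on ERN2, a count that adds up the endogenous gene and any leak of the transgene.

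The 6 libraries had 17450852 to 19525389 reads on genes, so read counts can be set side by side almost as they stand. Every pair of replicates differed by more than sampling noise, and all 6 were kept as separate samples. The labels do not say whether they came from separate cultures, so p-values cover the spread between these libraries, which may be technical. On the first principal component, with 55.7% of the variance, all 3 thapsigargin libraries lay apart from all 3 vehicle libraries, and thapsigargin replicate 3 stood apart from the other two on the second, with 19.7%. The extraction label names colon crypt epithelial cells. Of 12 colon epithelial markers 10 had fewer than 10 reads in each of the 6 libraries, with CDX1, CDH17, FABP1 and TFF3 at 0 throughout, and the summed level of the list was 4.58 to 5.24 CPM (reads scaled to one common library size) with vehicle and 6.63 to 10.1 with thapsigargin, nearly all of it from CDX2. Of 7 genes known from HEK293 cells 6 had at least 10 reads in every library, from 43 reads or more on PAX2 to 24676 or more on VIM, and PAX8 had 0 to 2. Their summed level was 2180 to 2430 CPM with vehicle and 1790 to 1950 with thapsigargin, and 2 of them, LHX1 at -0.80 and NEFL at -0.60 on the log2 scale, were called lower.

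Thapsigargin blocks SERCA, the pump that fills the endoplasmic reticulum (ER) with calcium. Calcium-dependent chaperones of the ER lumen then fail, unfolded proteins build up, and the unfolded protein response (UPR) begins. The UPR has a trio of sensors. ERN1 (IRE1α) splices XBP1 mRNA and cuts other mRNAs at the ER membrane, EIF2AK3 (PERK) phosphorylates eIF2α and so slows translation while favouring that of ATF4, and ATF6 is cut in the Golgi to release a transcription factor. ERN2 (IRE1β) is the epithelial relative of ERN1. Calcium that leaks into the cytosol also acts through calcineurin and NFAT.

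Of 14397 genes tested with edgeR's quasi-likelihood test at a Benjamini-Hochberg adjusted p of 0.01, 1611 were called, which is 11.2% of those tested. The 929 called higher (6.45%) had a median log2 fold change of 0.76, and 268 of them reached at least 1 on that scale, a doubling. The 682 called lower (4.74%) had a median of -0.66, and 85 reached -1 or less. At 4-fold, a log2 fold change of 2, there were 50 raised genes and 2 lowered ones. All 1611 had 3 thapsigargin libraries entirely above or entirely below the 3 vehicle libraries, which held for 40% of all genes tested, and the median over all genes was -0.0066. The count depends on single libraries. It was 731 without vehicle replicate 1, 923 without vehicle replicate 3, 906 without thapsigargin replicate 1 and 996 without thapsigargin replicate 2, and of the 149 called genes picked out by the naming rule 97 passed in each of the 6 fits with a library removed (leave-one-out fits). Genes of that rule given below as raised or lowered are among those 97 unless stated otherwise, and genes outside it were not followed through those fits. Counts are shares of each library, so fewer copies per cell and a smaller share of all mRNA cannot be told apart. Counts over gene lists refer to the members that passed the filter on low counts.

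**Figure D1:**
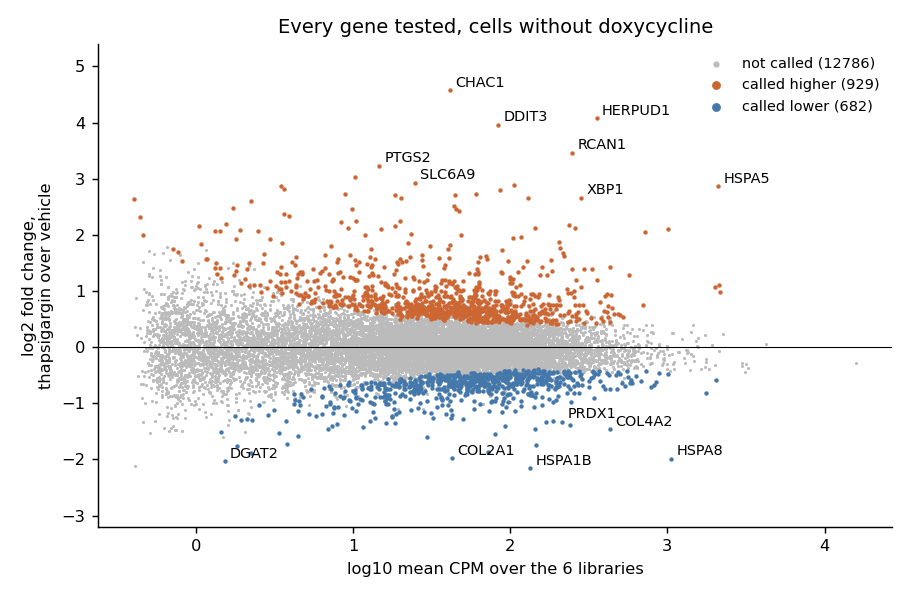
Every gene tested in cells without doxycycline, with log10 of the mean CPM over the 6 libraries on the x axis and the log2 fold change of thapsigargin over vehicle on the y axis. Orange points are the 929 genes called higher, blue points the 682 called lower and grey points those not called at an adjusted p of 0.01. CHAC1, HERPUD1, DDIT3 and RCAN1 lie highest within the axis, HSPA5 is the most abundant of the strongly raised genes, and HSPA1B and HSPA8 lie lowest among abundant genes. ELANE, at 12.13, is outside the axis.

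Genes of protein folding in the ER included several of the largest rises, though not all of these genes passed the test. HSPA5 (chr9:125234853-125241330, minus strand, hg38), which encodes the ER Hsp70 chaperone BiP, had 9355, 9293 and 9376 reads in vehicle replicates 1, 2 and 3 and 57185, 89445 and 53479 in the thapsigargin replicates. It went from 506 ± 36.1 to 3689 ± 1012 CPM (SD, n = 3), a 7.29-fold rise (log2 fold change 2.87, SE 0.17, adjusted p = 2.33e-07). Thapsigargin replicate 2 was the highest of the 3, and the lowest of them was still far above every vehicle library. Of 18 ER Hsp70 and Hsp90 chaperones and cofactors, 11 were called higher and 0 lower, with a median log2 fold change of 1.24, where all genes gave -0.0066. Summed over the 18 genes the level was 5790 ± 359 CPM with vehicle and 14800 ± 3020 CPM with thapsigargin (SD, n = 3).

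SDF2L1, a cofactor of BiP in the ER lumen, rose from 454, 338 and 410 reads to 2383, 2993 and 2749 (log2 fold change 2.80, SE 0.13, adjusted p = 3.55e-08). DNAJB9 (ERdj4), the Hsp40 cochaperone that holds IRE1α inactive together with BiP, rose from 215, 238 and 196 to 1304, 1850 and 1022 reads (log2 fold change 2.72, SE 0.19, adjusted p = 8.87e-07). FICD, the enzyme that adds AMP to BiP and removes it again, rose from 92, 92 and 89 to 537, 686 and 522 reads (log2 fold change 2.71, SE 0.15, adjusted p = 1.46e-07). All of these kept their vehicle and thapsigargin libraries well apart. HYOU1, the large Hsp70 relative that exchanges the nucleotide of BiP, had a log2 fold change of 2.10 (SE 0.15, adjusted p = 1.14e-06), and DNAJC3 (p58IPK), an ER cochaperone, one of 1.76 (SE 0.17, adjusted p = 2.14e-05).

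A list of 15 genes known to be regulated by ATF6 was the one list called in full, with 15 higher, 0 lower and a median of 1.96. Its members ranged from 0.80 for PDIA6, a disulfide isomerase, to 4.08 for HERPUD1, a membrane protein of ER-associated degradation (ERAD). The list shares HSPA5, HSP90B1, HYOU1, SDF2L1, DNAJB11, DNAJC3, CRELD2, MANF and CALR with the chaperone list, and XBP1 itself is a member. MANF, a small secreted protein that holds BiP to its clients, was at 2.18. Its count of 15 was found in all 6 leave-one-out fits and in each of the other alternatives. Within the thapsigargin group all 15 were highest in replicate 2, as were 17 of the 18 chaperones and cofactors, while 32.9% of all genes tested were.

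**Figure D2:**
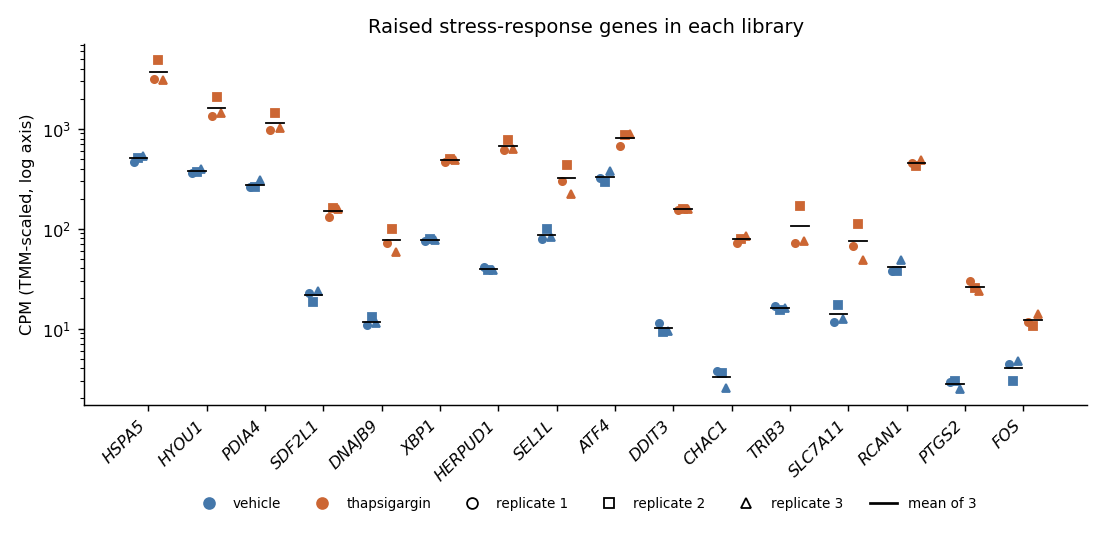
Level of 16 raised genes in each of the 6 libraries without doxycycline, in TMM-scaled CPM on a log axis. Blue marks are vehicle and orange marks thapsigargin libraries, the mark's shape gives the replicate number and bars are the means of 3. In all 16 genes the 3 thapsigargin libraries lie above the 3 vehicle libraries, and among HSPA5, HYOU1, PDIA4, SEL1L, TRIB3 and SLC7A11 thapsigargin replicate 2 (square) is the highest.

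XBP1, ATF6 and NF-Y bind the ER stress response element, in which CCAAT and CCACG lie 9 bases apart, and its shorter form, the ER stress response element II. Promoter windows of 250 bases before and 50 bases after the start, from RefSeq on GRCh38.p14, were matched to 11218 of the genes tested. The element was searched on both strands. It was found in the windows of 16 genes, or 0.143%, of which 10 were called higher and 0 lower. The 10 are HSPA5, FICD, XBP1, CRELD2, TRIM5, HSP90B1, CALR, ERO1LB, ALG12 and PDIA6, and the other 6 were not called, with log2 fold changes of 0.02 for SYNPO to 0.60 for SERP1. Among the 743 raised genes with a window the share was 1.35%, and among the 536 lowered genes it was 0. A match describes the letters of the window and no binding was measured. The next stretches give the element, in capitals with up to 20 bases on each side, in the promoters of XBP1 and of the chaperones, chaperone cofactors and disulfide isomerase among the raised genes that hold it, read 5′ to 3′ in the direction of the gene. They were chosen to set the element beside the ER folding genes described above.
HSPA5: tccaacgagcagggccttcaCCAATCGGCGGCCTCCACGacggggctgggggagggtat
FICD: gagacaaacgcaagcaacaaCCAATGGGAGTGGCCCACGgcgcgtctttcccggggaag
XBP1: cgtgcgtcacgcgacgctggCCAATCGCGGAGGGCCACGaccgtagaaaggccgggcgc
CRELD2: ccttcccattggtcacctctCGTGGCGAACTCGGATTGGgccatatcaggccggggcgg
HSP90B1: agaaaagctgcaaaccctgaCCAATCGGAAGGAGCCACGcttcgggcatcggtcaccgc
HSP90B1: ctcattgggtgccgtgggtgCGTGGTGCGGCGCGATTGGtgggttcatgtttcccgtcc
CALR: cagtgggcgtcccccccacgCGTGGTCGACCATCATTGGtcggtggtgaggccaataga
PDIA6: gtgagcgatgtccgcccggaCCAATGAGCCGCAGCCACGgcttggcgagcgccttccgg

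In the order printed, with the distance from the first base of the element, these lie at chr9:125241371-125241429 on the minus strand, 66 bases before the start, chr12:108515103-108515161 on the plus strand, 154 bases before the start, chr22:28800583-28800641 on the minus strand, 52 bases before the start, chr22:49918534-49918592 on the plus strand, 80 bases before the start, chr12:103930196-103930254 on the plus strand, 194 bases before the start, chr12:103930301-103930359 on the plus strand, 89 bases before the start, chr19:12938364-12938422 on the plus strand, 225 bases before the start and chr2:10812833-10812891 on the minus strand, 86 bases before the start. HSP90B1 (GRP94), the Hsp90 of the ER, holds 2 elements in its window. CRELD2 and ALG12 are transcribed away from each other and share a single element between them, and both were called higher, at 1.96 and 0.96. In CRELD2, CALR and the second stretch of HSP90B1 the element reads on the opposite strand, so that CGTGG comes first.

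The ER stress response element II, added to the search after the data were seen, was found in 15 windows, 0.134% of the 11218. It was in 0.538% of the windows of raised genes and 0.187% of those of lowered genes. Among its 15 holders 4 were called higher and 1 lower. The rest were not called, and the median log2 fold change of all 15 was 0.15. The 4 were HERPUD1, SDF2L1, HYOU1 and RAD9A, and the lowered gene was PLS3 at -0.52. Its sequence is shown for the first 3, which are the genes of ER protein folding and ERAD among them. HYOU1 holds it at 2 places.
HERPUD1: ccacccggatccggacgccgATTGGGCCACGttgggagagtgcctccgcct
SDF2L1: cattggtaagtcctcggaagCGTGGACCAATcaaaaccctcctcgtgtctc
HYOU1: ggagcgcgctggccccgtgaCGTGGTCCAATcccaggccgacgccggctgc
HYOU1: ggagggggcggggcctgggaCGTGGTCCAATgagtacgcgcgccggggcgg

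These lie at chr16:56932005-56932055 on the plus strand, 117 bases before the start, chr22:21642094-21642144 on the plus strand, 188 bases before the start, chr11:119057360-119057410 on the minus strand, 185 bases before the start and chr11:119057254-119057304 on the minus strand, 79 bases before the start, again on GRCh38.p14.

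Among the sensors and factors of the UPR 5 of 11 genes were called higher and 0 lower. XBP1 (chr22:28794555-28800597, minus strand) stood first, with 1508, 1437 and 1350 reads in the vehicle libraries and 8565, 9259 and 8531 in the thapsigargin libraries (log2 fold change 2.66, SE 0.10, adjusted p = 1.78e-09). Its replicates lay close together in both groups. Gene counts add up spliced and unspliced XBP1 mRNA, so splicing was not measured. EIF2AK3, the PERK sensor, rose from 618, 620 and 561 to 1706, 1974 and 1334 reads (log2 fold change 1.51, SE 0.13, adjusted p = 8.43e-06), and CREB3L2, an ATF6-related factor cut in the Golgi, rose by 1.28 on the log2 scale (SE 0.15, adjusted p = 9.54e-05). ERN1 had 149, 132 and 146 reads with vehicle and 305, 328 and 239 with thapsigargin (log2 fold change 1.06, SE 0.15, adjusted p = 0.000451). ERN2 had 182, 121 and 135 reads against 262, 194 and 211, and did not pass the threshold (log2 fold change 0.65, SE 0.17, adjusted p = 0.0168). The ERN2 groups did not overlap, which held for 40% of all genes tested. Its gene overlaps the end of PLK1 on the other strand.

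Of the 20 disulfide isomerases and oxidases tested out of 21 listed, the enzymes that form and reshuffle disulfide bonds in the ER, 5 were called higher and 1 lower, with a median of 0.25. PDIA4 led with 5213, 4785 and 5338 reads and 17873, 26695 and 17985 reads (log2 fold change 2.06, SE 0.15, adjusted p = 1.23e-06), followed by TXNDC11 at 1.07 and PDIA6 at 0.80. ERO1LB, an oxidase that recharges the isomerases, was at 0.98 and PRDX4, an ER peroxiredoxin, at -0.56, each passing in 3 of the 6 leave-one-out fits. The other 14 members did not pass the test.

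ERAD, which returns misfolded proteins to the cytosol for degradation, gave 8 of 28 genes called higher, 2 lower and a median of 0.20. HERPUD1 (chr16:56932048-56944863, plus strand), which helps to assemble the HRD1 ligase complex, rose from 826, 702 and 672 to 11088, 14149 and 10928 reads, a 16.9-fold change with the smallest adjusted p of all genes, shared with DDIT3 (log2 fold change 4.08, SE 0.13, adjusted p = 6.09e-10). DERL3, a membrane component of the retrotranslocation channel, rose from 764, 654 and 558 to 3960, 4573 and 3508 reads (log2 fold change 2.65, SE 0.12, adjusted p = 1.86e-08). SYVN1, the HRD1 ubiquitin ligase itself, was at 1.55 (SE 0.12, adjusted p = 1.97e-06) and its partner SEL1L at 1.88 (SE 0.20, adjusted p = 4.09e-05). JKAMP and RNF103, an adaptor and a ligase of the ER membrane, fell by 1.16 and 0.72 on the log2 scale.

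Genes regulated by XBP1, several of them shared with the lists above, were called higher in 9 of 19 cases and lower in 0, with a median of 0.60. In the machinery that threads proteins into the ER, 1 of 27 genes was called higher and 1 lower, 3.7% each beside the 6.45% and 4.74% of all genes. Leaving out 1 library moved its median of 0.14 to between -0.13 and 0.22, and its count called higher to between 0 and 7. Among 33 genes of COPII and COPI vesicles 5 were called higher, 15.2% beside 6.45% of all genes, and 0 lower. PREB, the exchange factor that starts COPII coats, was at 0.82 and MIA3, the receptor for large cargo, at 0.77. SEC24D, a cargo adaptor of the coat, had the largest value, 1.61, with 1296, 2915 and 1065 reads in the thapsigargin libraries against 597, 611 and 556, and passed in 5 of 6 leave-one-out fits. The count of 5 ran from 2 to 10 in those fits.

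The PERK and ATF4 branch is also called the integrated stress response. ATF4 mRNA itself rose from 6438, 5388 and 6540 to 12324, 15839 and 15409 reads (log2 fold change 1.28, SE 0.13, adjusted p = 2.54e-05). DDIT3 (CHOP; chr12:57516588-57521737, minus strand), the partner factor of ATF4, rose from 229, 169 and 163 to 2820, 2927 and 2722, a 15.6-fold change (log2 fold change 3.96, SE 0.13, adjusted p = 6.09e-10). The 3 thapsigargin libraries lay close together. DDIT3 overlaps the ends of MARS and MBD6 on the other strand. ATF3 rose from 1765, 1575 and 1953 to 7027, 6292 and 9144 reads (log2 fold change 2.12, SE 0.16, adjusted p = 1.83e-06) and CEBPB from 354, 242 and 235 to 1250, 1664 and 1397 (log2 fold change 2.42, SE 0.15, adjusted p = 4.01e-07). Of the 12 factors listed 6 were called higher and 0 lower, with a median of 1.19.

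Effectors linked to ATF4 were called higher in 12 of the 18 tested out of 20 listed and lower in 1, with a median of 1.59. CHAC1 (chr15:40952962-40956519, plus strand), which breaks down glutathione, had the highest fold change of any gene apart from ELANE, described last, and went from 74, 66 and 44 to 1315, 1466 and 1478 reads, 23.9-fold (log2 fold change 4.58, SE 0.16, adjusted p = 1.43e-09). TRIB3, a pseudokinase that restrains ATF4 and AKT, had 336, 278 and 276 reads with vehicle and 1303, 3134 and 1324 with thapsigargin (log2 fold change 2.73, SE 0.28, adjusted p = 2.67e-05), so thapsigargin replicate 2 held more than 2 times as many reads as either of the others. PPP1R15A (GADD34), which brings phosphatase 1 to eIF2α and so reopens translation, went from 2278, 1732 and 1969 to 5340, 6358 and 6119 (log2 fold change 1.62, SE 0.12, adjusted p = 1.23e-06). ADM2 and STC2, a secreted peptide and a secreted glycoprotein, were at 3.03 (SE 0.34, adjusted p = 6.25e-05) and 2.88 (SE 0.14, adjusted p = 4.81e-08). CDKN1A, the cell cycle inhibitor p21, was the 1 member called lower, at -0.56, and passed in 4 of 6 leave-one-out fits.

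After the ATF6 list, genes that supply amino acids had the largest share called higher, 17 of 24 tested out of 25 listed, with 0 lower and a median of 0.88. The count ran from 12 to 19 with 1 library left out. The largest rises were in carriers. SLC6A9, the glycine transporter GlyT1, went from 103, 111 and 105 to 572, 1279 and 528 reads (log2 fold change 2.92, SE 0.29, adjusted p = 2.1e-05), and its gene overlaps CCDC24 on the other strand. SLC7A11, the cystine carrier xCT, went from 231, 318 and 218 to 1212, 2068 and 855 (log2 fold change 2.46, SE 0.26, adjusted p = 3.94e-05) and its heavy chain SLC3A2 from 2129, 1615 and 1987 to 5128, 6430 and 6342 (log2 fold change 1.68, SE 0.13, adjusted p = 2.11e-06). CTH, which makes cysteine, was at 2.16 (SE 0.19, adjusted p = 9.37e-06). ASNS, asparagine synthetase and a classic ATF4 target, rose less, from 834, 1048 and 834 to 1944, 3114 and 1690 reads (log2 fold change 1.34, SE 0.19, adjusted p = 0.000357). In the thapsigargin group 20 of the 24 genes were highest in replicate 2.

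Cytosolic aminoacyl-tRNA synthetases, which load tRNAs with amino acids, followed with 8 of 19 called higher, 0 lower and a median of 0.42, and 4 to 10 higher with 1 library left out. AARS was at 1.19 (SE 0.12, adjusted p = 2.54e-05), CARS at 1.15 and YARS at 0.89. Their mitochondrial counterparts were called higher in 2 of 17 cases and lower in 1, with a median of -0.02, and none of those 3 genes passed in all leave-one-out fits. Among inhibitors of mTORC1, the growth kinase complex, the stress-induced DDIT4 (REDD1) rose from 295, 234 and 198 to 1274, 1440 and 1313 reads (log2 fold change 2.52, SE 0.13, adjusted p = 6.59e-08) and SESN2 from 1251, 924 and 832 to 3878, 4764 and 4088 (log2 fold change 2.13, SE 0.13, adjusted p = 2.65e-07). An antisense transcript, DDIT4-AS1, overlaps DDIT4. The list of 10 tested held 1 gene called lower, SESN1 at -0.62, which passed in 0 of 6 leave-one-out fits.

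The C/EBP-ATF element, TGATGNAA, to which ATF4 binds with C/EBP partners, was found in 5.38% of the windows of raised genes, 10% of those raised 2-fold or more, 2.24% of those of lowered genes and 2.74% of all. The cyclic AMP element TGACGTCA was in 5.38%, 5.79%, 3.17% and 3.82% in the same order, and the AP-1 element TGANTCA in 6.59%, 8.95%, 6.72% and 7.15%. All were read on both strands. The C/EBP-ATF element is printed here, in capitals, for the promoters of HERPUD1 and of factors of the same branch, ATF3, JDP2 and CEBPG, all called higher, at 4.08, 2.12, 2.00 and 1.28 on the log2 scale.
HERPUD1: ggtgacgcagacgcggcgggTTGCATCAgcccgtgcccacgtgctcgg
ATF3: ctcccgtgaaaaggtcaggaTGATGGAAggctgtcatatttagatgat
JDP2: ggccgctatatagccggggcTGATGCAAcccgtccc
CEBPG: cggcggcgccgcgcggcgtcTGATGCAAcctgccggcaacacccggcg

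Their positions are chr16:56931946-56931993 on the plus strand, 176 bases before the start, chr1:212565196-212565243 on the plus strand, 191 bases before the start, chr14:75427986-75428021 on the plus strand, 16 bases before the start and chr19:33374051-33374098 on the plus strand, 42 bases before the start, on GRCh38.p14. HERPUD1 thus holds both this element and the ER stress response element II in the same window. CHAC1 and ASNS also hold the C/EBP-ATF element, in stretches that lie wholly in exons and are not printed. Some stretches printed further above lie partly in exons. These are XBP1 with 15 exon bases, HSP90B1 with 16 and 26, PDIA6 with 12 and the element II stretch of HERPUD1 with 8. All distances are counted to the start of a RefSeq window, which can differ from the gene positions given.

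Calcium signals have their own early targets. RCAN1 (chr21:34513142-34615142, minus strand), the calcineurin inhibitor that calcineurin itself induces through NFAT, rose from 753, 682 and 837 to 8205, 7754 and 8423 reads, 11.0-fold (log2 fold change 3.46, SE 0.13, adjusted p = 1.78e-09). PTGS2, the prostaglandin synthase COX-2, rose from 58, 55 and 43 to 546, 470 and 410 (log2 fold change 3.23, SE 0.17, adjusted p = 6.59e-08). These were the 2 genes called higher among 15 of calcineurin, RCAN and NFAT, 0 were lower, and the list's median was 0.15. The summed level of the list was 896 ± 43.3 CPM with vehicle and 1390 ± 27.9 CPM with thapsigargin (SD, n = 3), of which RCAN1 alone made up 41.1 ± 6.24 and 452 ± 31.1. ATP2A2, which encodes the SERCA pump that thapsigargin blocks, rose from 9538, 9766 and 9554 to 14904, 18640 and 14130 reads (log2 fold change 0.76, SE 0.11, adjusted p = 0.000582), and ITPR1, a calcium release channel of the ER, rose by 0.73 on the log2 scale. Of 22 calcium pumps, channels and entry factors these 2 were called higher and 1 lower, TMCO1 at -0.48, which passed in 1 of 6 leave-one-out fits. These shares, 9.09% and 4.55%, lie near the 6.45% and 4.74% of all genes, and the list's median was -0.03.

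Immediate-early and AP-1 genes, which serum and many stresses induce, were called higher in 11 of the 33 tested and lower in 1, BTG2 at -0.74 (passing in 5 of 6 leave-one-out fits), with a median of 0.47. FOS, a subunit of AP-1, had 88, 55 and 82 reads with vehicle and 211, 196 and 243 with thapsigargin (log2 fold change 1.57, SE 0.20, adjusted p = 0.000147). NR4A2, an orphan nuclear receptor, had 170, 186 and 189 and then 602, 472 and 450 (log2 fold change 1.52, SE 0.15, adjusted p = 2.85e-05). EGR1, a zinc finger factor, had 1505, 1223 and 1279 and then 2204, 2153 and 3016 (log2 fold change 0.93, SE 0.14, adjusted p = 0.000702). The groups did not overlap for any of them, as for every called gene, and the rises were smaller than those of DDIT3 or CHAC1. In contrast to the chaperones, 26 of the 33 were highest in thapsigargin replicate 3 and 0 in replicate 2, where 40.1% and 32.9% of all genes were, and the count called higher ran from 6 to 13 with 1 library left out.

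Among 18 secreted factors tested, of 24 listed, 5 were called higher and 0 lower. ADM2, STC2, VEGFA and INHBE, 4 of the 5, are also in the list of ATF4-linked effectors. VEGFA, the main blood vessel growth factor, went from 985, 867 and 902 to 2315, 2853 and 2629 reads (log2 fold change 1.54, SE 0.11, adjusted p = 1.39e-06) and INHBE, an inhibin beta chain, from 11, 10 and 7 to 40, 41 and 35 (log2 fold change 2.08, SE 0.30, adjusted p = 0.000452). Of 14 circadian clock genes 3 were higher, 21.4% beside 6.45% of all genes, and 0 lower, with PER1 at 1.17 and PER2 at 1.12. Noncoding host genes of snoRNAs, whose spliced RNAs are degraded while they are translated, were called higher in 9 of 19 cases and lower in 0, with a median of 0.47. SNHG17 rose from 409, 304 and 369 to 1338, 1282 and 1587 reads (log2 fold change 2.00, SE 0.14, adjusted p = 1.23e-06), SNHG12 from 250, 239 and 244 to 742, 699 and 788 (log2 fold change 1.64, SE 0.13, adjusted p = 2.11e-06), and EPB41L4A-AS1 and SNHG15 by 1.58 and 1.56 on the log2 scale. HRK, a BH3-only protein that promotes apoptosis, went from 55, 45 and 44 to 109, 135 and 102 reads (log2 fold change 1.30, SE 0.19, adjusted p = 0.000534). It was the 1 gene called higher among 17 of the BCL2 family and death receptors and BMF, at -0.78 and passing in 2 of 6 leave-one-out fits, the 1 called lower, 5.88% each, so the list lies near the shares of all genes. GADD45A, a growth arrest gene also listed with ATF4, was at 1.57 and WIPI1, an autophagy protein, at 1.79. CDC6, a licensing factor of replication, was at 1.39.

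Genes with a ZNF name, many of them transcriptional repressors with zinc fingers, were examined as one large list. Of 470 tested, out of 527 listed, 67 were called higher and 0 lower, 14.3% beside 6.45% of all genes, and 348 lay above 0, with a median of 0.23. Over the alternatives and left-out libraries the median was 0.19 to 0.28 and the count 26 to 130. ZNF165 rose from 109, 98 and 101 to 700, 575 and 607 reads (log2 fold change 2.65, SE 0.14, adjusted p = 9.26e-08), ZNF804A from 45, 74 and 45 to 246, 310 and 193 (log2 fold change 2.22, SE 0.23, adjusted p = 3.52e-05) and ZNF550 from 817, 795 and 656 to 2546, 2658 and 2118 (log2 fold change 1.73, SE 0.11, adjusted p = 6.66e-07).

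**Figure D3:**
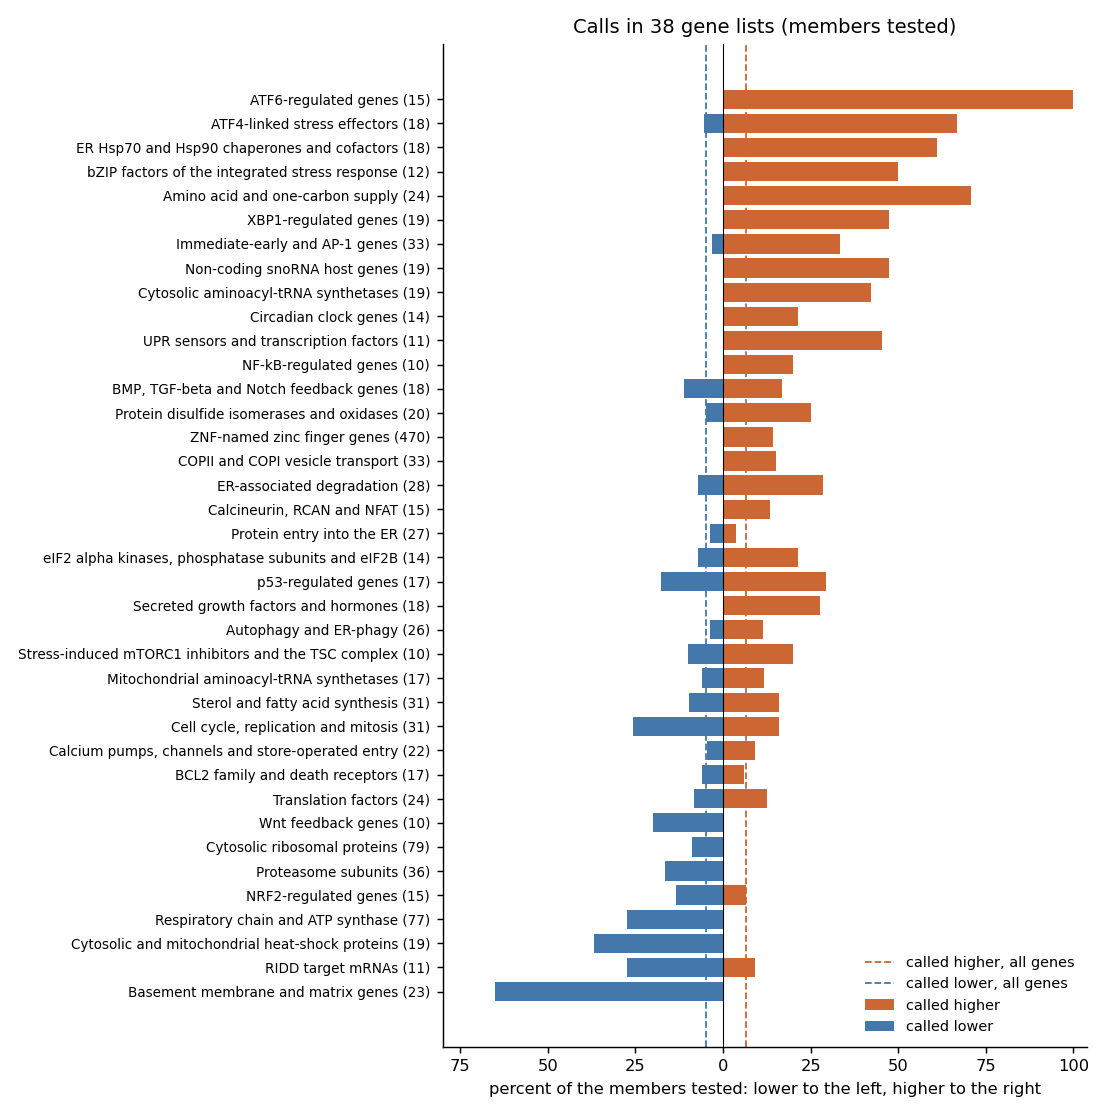
Share of the tested members of each of 38 gene lists that were called higher (orange, to the right) or lower (blue, to the left) without doxycycline, with the number tested in brackets and the lists ordered by their median log2 fold change. Dashed lines mark the shares over all genes, 6.45% higher and 4.74% lower. The ATF6-regulated list is called higher in full, and basement membrane and matrix genes have the largest share called lower, 65.2%.

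Several chaperones of the cytosol fell. HSPA8 (chr11:123057489-123063230, minus strand), the constitutive Hsp70 of the cytosol and nucleus, went from 29639, 31554 and 31927 to 8009, 6173 and 8732 reads, or from 1684 ± 182 to 425 ± 83.9 CPM (SD, n = 3; log2 fold change -1.99, SE 0.14, adjusted p = 1.39e-06). HSPA1B and HSPA1A, the inducible Hsp70 genes, went from 4115, 4181 and 3809 to 867, 741 and 1026 reads (log2 fold change -2.16, SE 0.13, adjusted p = 4.01e-07) and from 2173, 1973 and 2168 to 549, 410 and 710 (log2 fold change -1.88, SE 0.18, adjusted p = 1.6e-05). All 3 had their thapsigargin libraries far below the vehicle libraries. The HSPA1B and HSPA1A sequences are nearly the same, so the split of reads between them is uncertain. AL671762.1 also overlaps HSPA1B over 1422 bases on the same strand. Of 19 cytosolic and mitochondrial heat-shock genes 7 were called lower and 0 higher, with a median of -0.39, and their summed level was 9240 ± 849 CPM with vehicle and 6030 ± 290.0 CPM with thapsigargin (SD, n = 3). HSF1, the factor that drives this group, was at 0.25 (adjusted p = 0.166).

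**Figure D4:**
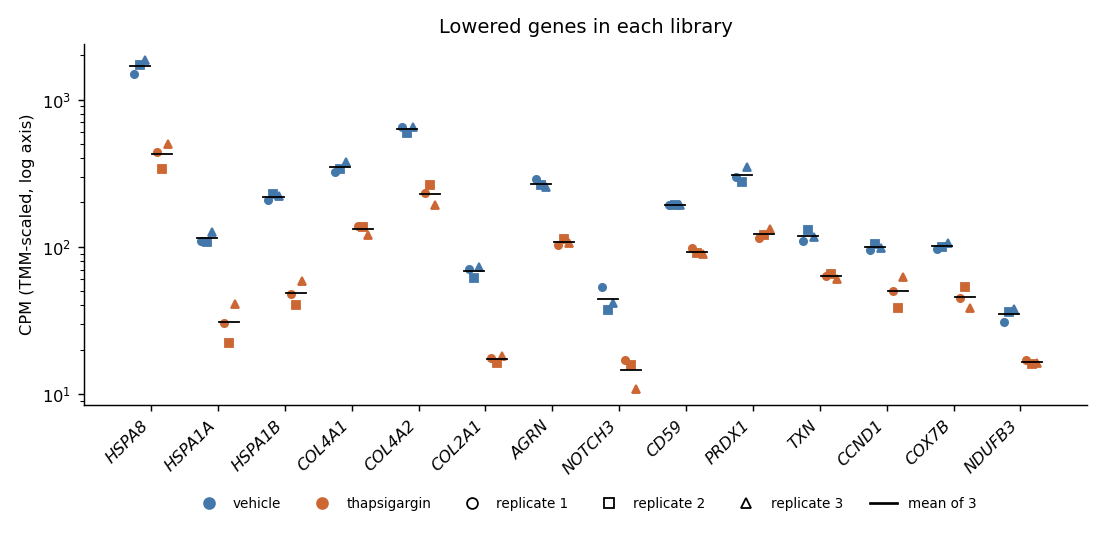
Level of 14 lowered genes in each of the 6 libraries without doxycycline, in TMM-scaled CPM on a log axis, with marks as for the raised genes. In all 14 the 3 thapsigargin libraries (orange) lie below the 3 vehicle libraries (blue), and HSPA8 falls from the highest level of the set.

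Genes of the basement membrane and extracellular matrix had the largest share called lower of any list, 15 of the 23 tested, with 0 higher and a median of -0.50. With 1 library left out 8 to 14 were called lower. COL4A2 and COL4A1, the chains of type IV collagen, went from 13059, 10866 and 11213 to 4239, 4843 and 3346 reads (log2 fold change -1.46, SE 0.12, adjusted p = 4.41e-06) and from 6404, 6209 and 6516 to 2501, 2498 and 2109 (log2 fold change -1.40, SE 0.11, adjusted p = 1.9e-06). COL5A1, a fibrillar collagen chain, went from 4037, 3837 and 3756 to 1386, 1502 and 1239 (log2 fold change -1.46, SE 0.10, adjusted p = 9.97e-07) and AGRN, the proteoglycan agrin, from 5755, 4785 and 4407 to 1860, 2066 and 1862 (log2 fold change -1.32, SE 0.10, adjusted p = 1.97e-06). HSPG2, the proteoglycan perlecan, was at -1.13, and the laminin chains LAMA5 and LAMA1 at -0.96 and -0.86. COL2A1, a cartilage collagen outside the list, fell further, from 1407, 1120 and 1261 to 320, 298 and 316 (log2 fold change -1.98, SE 0.12, adjusted p = 4.01e-07). NOTCH3, a cell surface receptor, fell by 1.60 on the log2 scale.

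These genes encode proteins that enter the ER. Over all genes with a protein in GENCODE 29, 2036 had a hydrophobic stretch near the amino terminus, a mean Kyte-Doolittle hydropathy of at least 2 over 12 residues within the first 40, as signal peptides do. They were called lower in 10.1% and higher in 3.39% of cases, with a median of -0.17. The 11163 genes without it were called lower in 4.13% and higher in 7.01%, with a median of 0.017. With the trends on GC content and length removed, the medians were -0.18 and 0.015.

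ERN1 and ERN2 also cut other mRNAs, a process called regulated IRE1-dependent decay (RIDD). Of 11 genes tested from a list of 12 known RIDD targets 3 were called lower and 1 higher, with a median of -0.40. These are 27.3% and 9.09%, beside 4.74% and 6.45% of all genes. With 1 library left out 1 to 4 were called lower. CD59, a surface inhibitor of complement, fell from 3846, 3527 and 3312 to 1776, 1662 and 1554 reads (log2 fold change -1.06, SE 0.10, adjusted p = 1.17e-05). DGAT2, an enzyme of fat synthesis, had 63, 29 and 45 reads with vehicle and 3, 11 and 18 with thapsigargin (log2 fold change -2.04, SE 0.44, adjusted p = 0.00579) and passed in 2 of 6 leave-one-out fits, and antisense transcripts overlap it. SPARC, a matrix protein, was at -0.46 and passed in 1 of them. BLOC1S1, the most used RIDD marker, had 170, 127 and 110 reads with vehicle and 70, 101 and 83 with thapsigargin. It did not pass (log2 fold change -0.63, SE 0.19, adjusted p = 0.0326). Its groups did not overlap, which held for 40% of all genes tested. The readthrough gene BLOC1S1-RDH5 spans it, so reads may be shared. PER1, at 1.17, was the member called higher.

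Of 77 genes of the respiratory chain and ATP synthase 21 were called lower, 27.3% beside 4.74% of all genes, and 0 higher, with a median of -0.31. COX7B was at -1.14 (SE 0.13, adjusted p = 6.52e-05), NDUFB3 at -1.09, ATP5G1 at -0.91 and SDHC at -0.84. The count was 8 to 29 with 1 library left out, and 19 with the trends on GC content and length removed. Cytosolic ribosomal protein genes were called lower in 7 of 79 cases, 8.86% beside 4.74% of all genes, and higher in 0. Their median was -0.17, and -0.11 with the trends on GC content and length removed. Their summed level was 37000 ± 2830 CPM with vehicle and 32300 ± 3240 CPM with thapsigargin (SD, n = 3), and the groups overlapped. RPL24 went from 6624, 5902 and 6868 to 3703, 4001 and 4114 reads (log2 fold change -0.68, SE 0.11, adjusted p = 0.000989). With 1 library left out 1 to 16 ribosomal genes were called lower. Proteasome subunits gave 6 lower and 0 higher of 36, 16.7% lower, with PSMA4 at -0.88, and 1 to 7 lower with 1 library left out. The medians of these 3 lists were below 0 under all scalings and left-out libraries, and lay between -0.35 and -0.10.

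Among NRF2-regulated genes PRDX1, a peroxiredoxin, fell from 5971, 5022 and 6011 to 2092, 2226 and 2295 reads (log2 fold change -1.32, SE 0.11, adjusted p = 5.8e-06) and TXN, thioredoxin, from 2178, 2384 and 2016 to 1145, 1212 and 1060 (log2 fold change -0.91, SE 0.11, adjusted p = 9.53e-05), while SLC7A11, counted above with amino acid supply, was the 1 of 15 called higher. Of 31 cell cycle genes 8 were called lower and 5 higher, 25.8% and 16.1% beside 4.74% and 6.45% of all genes. CCND1, cyclin D1, fell from 1912, 1904 and 1696 to 917, 710 and 1087 (log2 fold change -0.98, SE 0.15, adjusted p = 0.000655). CDK1, TOP2A and PCNA were at -0.85, -0.67 and -0.65, and passed in 5, 4 and 3 of 6 leave-one-out fits, and the list's count called lower ran from 2 to 8 in those fits. NRARP, a feedback inhibitor of Notch, fell by 0.86 on the log2 scale and DKK1, a secreted Wnt inhibitor, by 0.90. EIF2AK2, the eIF2α kinase PKR that double-stranded RNA activates, fell by 0.73 and did not pass in a fit with all 6 groups (adjusted p = 0.0218). IFIT1, an interferon-induced gene at low level, had 63, 54 and 42 reads with vehicle and 19, 14 and 12 with thapsigargin (log2 fold change -1.77, SE 0.28, adjusted p = 0.000826). LIPA lies over it on the other strand.

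The remaining lists gave few calls in number, and several of those rest on single libraries. Their shares called higher ran from 0% (Wnt feedback) to 29.4% (p53-regulated), beside 6.45% of all genes. Their shares called lower ran from 0% (NF-kB-regulated) to 20% (Wnt feedback), beside 4.74% of all genes. Of 31 sterol and fatty acid synthesis genes 5 were called higher and 3 lower (3 to 6 and 0 to 3 with 1 library left out), with HSD17B7 at 1.52, a gene that may share reads with the pseudogene HSD17B7P2, and MVD at 0.91. The lowered genes ELOVL6, INSIG1 and FASN passed in 3, 1 and 1 of 6 leave-one-out fits. The 24 translation factors gave 3 higher and 2 lower (1 to 3 and 0 to 2 with 1 library left out), with EIF4EBP1, the inhibitor of eIF4E, at 0.96. The 17 p53-regulated genes gave 5 higher and 3 lower, and 2 to 5 and 0 to 2 with 1 library left out, so that the count of 3 lower was reached in none of those fits. The 18 genes of BMP, TGF-beta and Notch feedback gave 3 higher and 2 lower (2 to 4 and 1 to 2 with 1 library left out), and the 26 of autophagy and ER-phagy 3 and 1 (1 to 3 and 0 to 1). The 14 eIF2α kinases, phosphatase subunits and eIF2B genes gave 3 and 1, as they did in each of those fits. The 10 NF-kB-regulated genes tested gave 2 higher and 0 lower (1 to 2 higher with 1 library left out), and the 10 Wnt feedback genes 0 higher and 2 lower (1 to 2 lower).

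The raised and lowered genes differed in base composition. Median transcript GC content was 50.5% over the raised genes with a match, 46.5% over the lowered and 48.8% over all tested, while median transcript lengths were 3358, 3536 and 3464 bases. Removing the trends on GC content and length from each library gave 2865 calls, of which 1586 were among the 1611 with the same direction. Pseudogenes made up 3.62% of the raised genes, 0% of the lowered and 1.65% of all.

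The same treatment was given to cells with 10 or 100 ng/mL doxycycline, in libraries that the comparison above does not use. At 10 ng/mL 212 genes were called, 1.45% of those tested, and at 100 ng/mL 29, or 0.201%. The count of 212 was 28 without vehicle replicate 2, 117 without vehicle replicate 3, 57 without thapsigargin replicate 2 and 494 without thapsigargin replicate 3. The count of 29 was 2568 without thapsigargin replicate 1 and 4 to 12 without any other single library of that dose, so values at 100 ng/mL are given with and without thapsigargin replicate 1. Of the 929 genes raised without doxycycline 925 of 927 tested at 10 ng/mL were above 0 there, and 677 of 681 lowered genes were below 0, where 49.3% and 50.7% of all genes were. Their medians were 0.58 and -0.46, against 0.76 and -0.66 without doxycycline. At 100 ng/mL 84.2% of the raised and 75.2% of the lowered genes had the same direction, where 49.7% and 50.3% of all genes had it. Their medians were 0.34 and -0.27, and 0 were called in the other direction. Without thapsigargin replicate 1 of that dose the shares were 74.9% and 69.9%, beside 47.3% and 52.7% of all genes. The medians were then 0.30 and -0.27. In that fit 227 raised and 167 lowered genes were called in the same direction, and 7 and 26 in the other direction.

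Single genes are set side by side on the log2 scale. DDIT3 was at 3.96 in uninduced cells, 3.56 with 10 ng/mL and 2.56 with 100 ng/mL (2.39 without that library), and CHAC1 at 4.58, 4.21 and 3.04 (2.82). ASNS was at 1.34, 1.58 and 1.23 (1.36) and COL4A2 at -1.46, -1.24 and -1.45 (-1.64). XBP1 went from 2.66 to 1.61 and 0.44 (0.39). The test of the difference itself called 0 genes at 10 ng/mL with edgeR and 2 with DESeq2, with 664 at an unadjusted p under 0.05. XBP1 had the smallest adjusted p there (0.0277). At 100 ng/mL it called 6, 0.0406% of those tested. XBP1 (-2.14), FICD (-2.16), HERPUD1 (-1.21), PDIA4 (-1.40) and HSPA5 (-1.58) rose less than without doxycycline, and SUMO2 (1.05), a ubiquitin-like modifier, fell without doxycycline (-0.93) and was at 0.04 at 100 ng/mL. The count of 6 was 1286 without thapsigargin replicate 1 at 100 ng/mL, 10 without thapsigargin replicate 3 of uninduced cells, 5 without thapsigargin replicate 1 or 2 of uninduced cells, and 2 without any other single library. In counts simulated for the difference at 100 ng/mL, edgeR found 12.6% of the genes that differed 2-fold and DESeq2 47%. A low count of calls is therefore not read as an unchanged response. Of the calls in that simulation, 3.85% were false with edgeR and 6.93% with DESeq2. The simulation set no library apart from its group. XBP1 had 76.8 ± 0.469 CPM with vehicle and 490 ± 4.32 with thapsigargin without doxycycline, and 162 ± 10.1 and 209 ± 18.9 at 100 ng/mL (counts over library totals, SD, n = 3), so at this dose it started higher with vehicle and ended lower with thapsigargin.

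**Figure D5:**
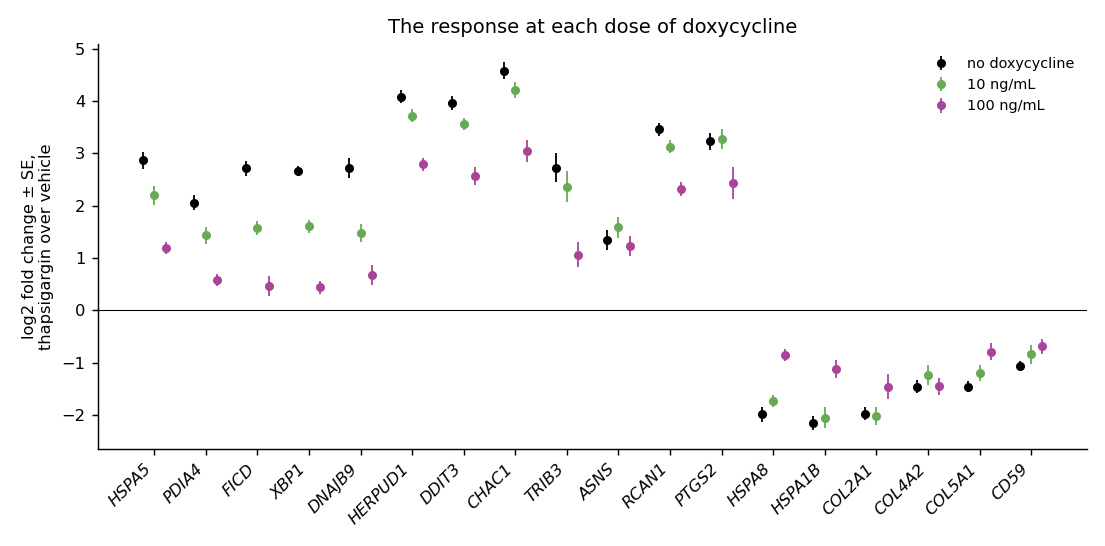
Log2 fold change of thapsigargin over vehicle, with its SE, for 18 named genes in cells left uninduced (black), given 10 ng/mL (green) or given 100 ng/mL (purple), each from 6 libraries. XBP1 and FICD have values of 2.66 and 2.71 without doxycycline and 0.44 and 0.47 at 100 ng/mL, while ASNS and COL4A2 keep theirs within 0.25 of the value without doxycycline.

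ELANE (chr19:851014-856247, plus strand), which encodes the serine protease neutrophil elastase, had the largest fitted fold change and met the rule for naming, but its libraries do not form a group. It had 1, 0 and 0 reads with vehicle and 323, 5807 and 25 with thapsigargin, and 0 to 3 reads in each of the 12 libraries with doxycycline. The fitted value of 12.13 (SE 2.31, adjusted p = 0.00265) rests on 1 read in the vehicle group and is no bound, and without vehicle replicate 1 the adjusted p was 0.025.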

How the data were processed

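RNA was sequenced from HEK293doxERN2 cells in 18 libraries, of which 6, grouped by their sample labels, form the comparison. The authors aligned reads with STAR in the VIPER pipeline, on hg38 per the submitters' processing notes, and deposited raw read counts per gene symbol without normalization or filter. The kit marks strand. Annotation, aligner version and strand setting of the counting are not given in the sources used here. Spreadsheet dates stand in place of the symbol in 28 rows.

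The filter was filterByExpr (count of at least 10) and the scaling TMM. The two-sided quasi-likelihood test of edgeR 4.0.16 in R 4.3.3 was run on the 6 libraries, and genes were called where the Benjamini-Hochberg adjusted p was below 0.01. SE stands for the absolute log2 fold change divided by the root of F. CPM are TMM-scaled and given as mean ± SD. An exact permutation test of 3 against 3 libraries cannot go below 0.1, so none was used. On counts simulated from these libraries, edgeR called 83.2% of 196 genes changed 2-fold among 14286.

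The comparison and the 38 gene lists were chosen with earlier results of these data known. Named genes are a fixed set of UPR genes, the 10 highest and 10 lowest called genes with a mean of at least 1 CPM, up to 4 called genes per list and direction, the 2 smallest adjusted p of a list with no call, and the 3 smallest adjusted p of the comparison and of each difference between doses, 151 in all. Other genes named (promoter holders, marker genes, SUMO2, MANF, HSF1, HSPG2, LAMA1, LAMA5) were picked after their values were seen. The ER stress response element II, the fit with GC content and length, and the fit without thapsigargin replicate 1 at 100 ng/mL were added after seeing the data. Gene positions, lengths, GC content and coding sequences came from GENCODE 29 on the same build, and promoter windows from RefSeq. Alternatives were DESeq2 1.42.0, RLE size factors, library totals alone, no filter, all 6 groups in one fit, the replicate number as a block, each library left out, an adjusted p of 0.05 and a 2-fold minimum. Depth was 17450852 to 19525389 reads per library in this comparison. One gene met by the naming rule is not reported here.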

Additional observations from a re-analysis of the deposited data

Results flagged for a closer look

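The response to thapsigargin differed between cells without doxycycline and cells with 100 ng/mL doxycycline for 6 genes by the test of the difference itself (edgeR, adjusted p under the threshold of 0.01). Among the genes named by the fixed rule, XBP1 differed by -2.14 on the log2 scale, FICD by -2.16 and HERPUD1 by -1.21. These differences were drawn from 12 libraries, and the cause was not tested.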

How the results depend on the processing

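For thapsigargin without doxycycline the count of 1611 became 3571 with the replicate number as a block, 2865 with GC and length trends removed, 3260 at an adjusted p of 0.05 and 353 with a 2-fold minimum. The genes called higher became 1845, 1518, 1753 and 268 in the same order, and those called lower 1726, 1347, 1507 and 85, with 1065 lower in DESeq2. With 1 library left out, 731 to 1901 were called, 436 to 1092 higher and 295 to 809 lower. Of the 1611 calls, 0 had the other sign under any of these settings, and 99.3% were also called by DESeq2.

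At 10 ng/mL the count of 212 became 1039 in DESeq2, 529 without a filter, 3620 with the block and 1009 at an adjusted p of 0.05, and ran from 28 to 494 with 1 library left out. At 100 ng/mL the 29 became 728, 299, 4 and 494 in the same order, and 4 to 2568 with 1 library left out. The difference at 10 ng/mL, with 0 calls, gave 2, 1, 1 and 1, and 0 in each fit with 1 library left out. The difference at 100 ng/mL, with 6 calls, gave 341, 86, 3 and 149, 14 with RLE size factors, and 2 to 1286 with 1 library left out. HERPUD1 at 100 ng/mL did not pass with the block (adjusted p = 0.0178).

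Whether the replicate numbers pair the libraries is not settled, and the main fit takes no account of such a pairing. Deviations of same-numbered vehicle and thapsigargin libraries without doxycycline correlated at 0.092, 0.252 and 0.33, not all over 0.1. Libraries with different numbers correlated at -0.359 to 0.21. For each vehicle replicate the same-numbered thapsigargin library gave the highest value. Pairing was not tested, so a higher count of calls under the block is not read as a stronger effect. The cause of these changes was not tested. With 3 libraries a group, single libraries limit genes of low count such as DGAT2. They also limit ELANE, whose thapsigargin libraries without doxycycline held 25 to 5807 reads.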
